A study of Mus musculus with 15 samples.

Results

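The genes described here are the 8 enzymes of serine synthesis and of folate-dependent one-carbon metabolism named *Phgdh*, *Psat1*, *Psph*, *Shmt1*, *Shmt2*, *Mthfd1*, *Mthfd1l* and *Mthfd2*. They were found by symbol, each with 1 row among the 55487 Ensembl genes of the count table, and 7 of them passed the filter on low counts while *Phgdh* did not. The list was proposed with results of these data in view, so the values of its genes are given as a description and without a test of their own. Skin of 3-week-old C57BL/6 mice was profiled with QuantSeq, a method that sequences polyadenylated transcripts near their 3′ ends, in 15 libraries. All mice carried loxP-flanked *Otulin* alleles according to the study's methods. The 5 WT libraries came from littermates without Cre, and the other 2 groups, labelled OTULIN-KO, from mice with Cre driven by the keratin 14 promoter, which deletes *Otulin* in keratinocytes and not in the other cells of the skin. Of the OTULIN-KO libraries, 5 were labelled non-lesional and 5 lesional. Whether lesional and non-lesional pieces came from the same mice is not stated, and the libraries were compared as unpaired. The replicate numbers run in 5 sets of WT, lesional and non-lesional (1, 2 and 3, then 4, 5 and 6, and so on), which the labels do not explain.

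Cells make serine from the glycolytic intermediate 3-phosphoglycerate in 3 enzymatic steps. PHGDH oxidises the substrate, PSAT1 transfers an amino group to it, and PSPH removes the phosphate. Serine hydroxymethyltransferases then split serine into glycine and a one-carbon unit carried by tetrahydrofolate, in the cytosol through SHMT1 and in mitochondria through SHMT2. The MTHFD enzymes interconvert folate-bound one-carbon units, MTHFD1 in the cytosol and MTHFD2 and MTHFD1L in mitochondria, from which formate is released for the synthesis of purines and thymidylate. These pathways are known for their activity in dividing cells, and several of their genes are targets of the transcription factor ATF4.

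Libraries held between 1962604 and 2567138 counts, and between 357 and 549 of these lay in the 8 genes together. Values are CPM, the counts scaled to TMM-normalised library sizes over all 15 libraries. Counts over the whole skin sample cannot tell fewer cells of a type from less RNA per cell. Some libraries stood apart. The summed CPM of 11 genes of hyperplastic epidermis was 14662 and 36548 in lesional replicates 2 and 11, against 752 to 995 in the other 3 lesional libraries, 769 to 1810 in non-lesional and 678 to 2230 in WT libraries. A list of 9 neutrophil genes had summed CPM of 2984 and 5081 in the same 2 lesional libraries, of 3.20 to 10.2 in the other 3, and of 218 in non-lesional replicate 3. These sums were almost wholly *S100a8* and *S100a9*, which inflamed keratinocytes also express, at 2389 and 2686 CPM in lesional replicate 11. Of the other genes of that list, *Ly6g*, *Mpo* and *Csf3r* were at 0 in every library, *Ngp*, *Ltf* and *Camp* had at most 1 count, and *Cxcr2* at most 5.47 CPM. Lesional replicate 11 also had 3795 summed CPM of 11 muscle genes, against 16460 to 38212 in the other 14 libraries. WT replicate 1 had 469 summed CPM of 14 hair genes, against 17.5 to 73.7 elsewhere. Non-lesional replicate 12 had 3784 summed CPM of 4 erythrocyte genes, against 781 to 2443 in the other libraries. The 8 keratinocyte markers summed to between 7830 and 13378 CPM in every library, but in lesional replicates 2 and 11 *Krt14* was at 3126 and 5886 CPM against 647 to 1450 in WT, and *Krt15* at 1164 and 632 CPM against 2473 to 3416 in WT. Of 8 macrophage markers 6 were higher in lesional than in WT libraries, beside 49.5% of all genes tested, and 2 were lower. Of the 6, 2 had an unadjusted p under 0.05 from edgeR's test, beside 3.24% of all genes higher at this level. The 8 summed to 423 to 661 CPM in lesional and 331 to 658 CPM in WT libraries. *Aif1* had 10.3 to 24.9 CPM in lesional and 5.41 to 9.62 CPM in WT libraries, and 0.449% of all genes were likewise higher without overlap. The 2 lower markers were *Adgre1*, with means of 14.1 and 15.1 CPM in lesional and WT libraries, and *Csf1r*, with 97.9 and 101 CPM. *Otulin* itself did not separate the groups, at 0.18 (SE 0.20) for non-lesional and 0.10 (SE 0.22) for lesional against WT libraries, as log2 fold change with its standard error (SE). According to the paper, whole skin tissue also holds cells outside the epidermis that still express OTULIN. Whether reads near the 3′ end register the deletion was not tested.

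*Shmt1* was the gene of the list without overlap between 2 groups, and *Shmt2*, its mitochondrial counterpart, had the largest fold change of the list, so the DNA upstream of their start sites is shown first, from RefSeq for GRCm38.p6. Each run is the 250 bases before the start, 5′ to 3′ on the strand of the gene. Capitals mark the letters CCAAT and GGGCGG, known as the CCAAT box and the GC box, read on both strands. *Shmt1* lies at chr11:60788104-60811718 on the minus strand in GENCODE, and its window at chr11:60811266-60811515, since the RefSeq start lies inside that span. *Shmt2* lies at chr10:127517123-127522444 on the minus strand, and its window at chr10:127522445-127522694.
Shmt1: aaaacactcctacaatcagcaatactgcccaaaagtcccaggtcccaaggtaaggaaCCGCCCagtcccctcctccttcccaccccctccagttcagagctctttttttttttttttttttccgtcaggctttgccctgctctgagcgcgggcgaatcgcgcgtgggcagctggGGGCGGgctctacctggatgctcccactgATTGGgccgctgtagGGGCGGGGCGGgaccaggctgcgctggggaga
Shmt2: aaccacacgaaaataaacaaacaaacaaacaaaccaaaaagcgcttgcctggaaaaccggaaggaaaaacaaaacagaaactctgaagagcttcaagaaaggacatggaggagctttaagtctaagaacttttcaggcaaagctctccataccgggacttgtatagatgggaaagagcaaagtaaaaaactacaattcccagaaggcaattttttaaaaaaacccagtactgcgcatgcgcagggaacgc
The *Shmt1* window held 1 CCAAT and 4 GGGCGG matches, some of them overlapping, and 60% of its bases were G or C. The *Shmt2* window held neither and was 40.8% G or C. Over 32851 windows of the same length in the table, 33.8% held CCAAT and 32.7% held GGGCGG. The sequence CACGTG, an E-box, was in no window of the 8 genes and in 6.02% of all windows, and TGATGNAA, a form of the site where ATF4 and C/EBP proteins bind together, in none of theirs and in 3.45% of all. A match describes letters in this window and not the binding of a factor.

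Of the first enzymes of serine synthesis, *Psat1* had the highest level of the 7 genes tested, at 51.7 ± 7.3 CPM in WT, 60.3 ± 12.3 CPM in non-lesional and 64.7 ± 19.1 CPM in lesional libraries (SD, n = 5 each). Fragments are read once per transcript near its 3′ end, so levels of different genes were compared without division by length. *Psat1* (ENSMUSG00000024640), on chromosome 19 from 15904678 to 15947337, had 40.2, 48.5, 56.1, 57.0 and 56.8 CPM in WT replicates 1, 4, 7, 10 and 13. In non-lesional replicates 3, 6, 9, 12 and 15 it had 50.8, 49.3, 54.8, 77.3 and 69.2 CPM. In lesional replicates 2, 5, 8, 11 and 14 it had 56.1, 51.4, 51.2, 96.5 and 68.1 CPM. Above the highest WT value were 2 of 5 libraries in each OTULIN-KO group, and the rest lay among the WT values. Relative to WT, the log2 fold change of *Psat1* was 0.22 (SE 0.15) for non-lesional and 0.32 (SE 0.19) for lesional libraries, which were 0.12 without non-lesional replicate 12 and 0.13 without lesional replicate 11.

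*Psph* (ENSMUSG00000029446), on chromosome 5 from 129765558 to 129787449, encodes the phosphatase of the last step and varied more among the lesional libraries than any group mean differed. It had 17.8, 17.5, 16.6, 19.4 and 14.3 CPM in WT libraries, in the order of replicates given above, and 24.5, 20.4, 21.4, 34.4 and 17.9 CPM in non-lesional libraries. In 4 of 5 non-lesional libraries it lay above all WT libraries. The lesional values were 25.3, 26.7, 11.6, 45.3 and 8.75 CPM, so that 3 values exceeded the WT range and 2, those of replicates 8 and 14, lay below it. The coefficient of variation was 61.8% in lesional, 27.1% in non-lesional and 11% in WT libraries. Relative to WT, the log2 fold change of *Psph* was 0.48 (SE 0.19) in non-lesional libraries and 0.46 (SE 0.36) in lesional libraries, and the lesional value was 0.08 without replicate 11 and -0.15 without replicates 2 and 11. Without non-lesional replicate 12 the non-lesional value was 0.30. At its 5′ end *Psph* shares 452 exon bases with *Cct6a*, on the opposite strand, whose own log2 fold changes were 0.26 in non-lesional and 0.31 in lesional libraries. These bases lie 21440 genomic bases from the 3′ end of *Psph*, and the method reads near 3′ ends. The counting options name no strand, and the part of these shared bases in the *Psph* values was not tested.

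*Phgdh* (ENSMUSG00000053398), on chromosome 3 from 98313170 to 98339990, encodes the first enzyme of the pathway and was hardly counted at all. It had 0 to 2 counts in a library and 13 counts in all, spread over 8 of 15 libraries. The 5 WT libraries held 3 counts (95% Poisson interval 0.62 to 8.77), the non-lesional libraries 4 (1.09 to 10.2) and the lesional libraries 6 (2.20 to 13.1), intervals that cover counting error only. No difference was detectable at this depth, and no fold change is given. Among annotated transcripts of other genes, 20 matched its last 300 bases with an identity between 90.5% and 99.0%, all but 1 of them annotated as processed pseudogenes, which are copies of a transcript inserted elsewhere in the genome. Those 20 genes together held 3 counts. The authors retained only matches of high mapping quality, and a read that fits several copies gets a low one. How many *Phgdh* reads were removed in this way was not tested, so the counts do not measure the level of its transcript relative to *Psat1* or *Psph*. None of the other 7 genes had an annotated match of this kind except *Shmt1*, described next.

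**Figure D1:**
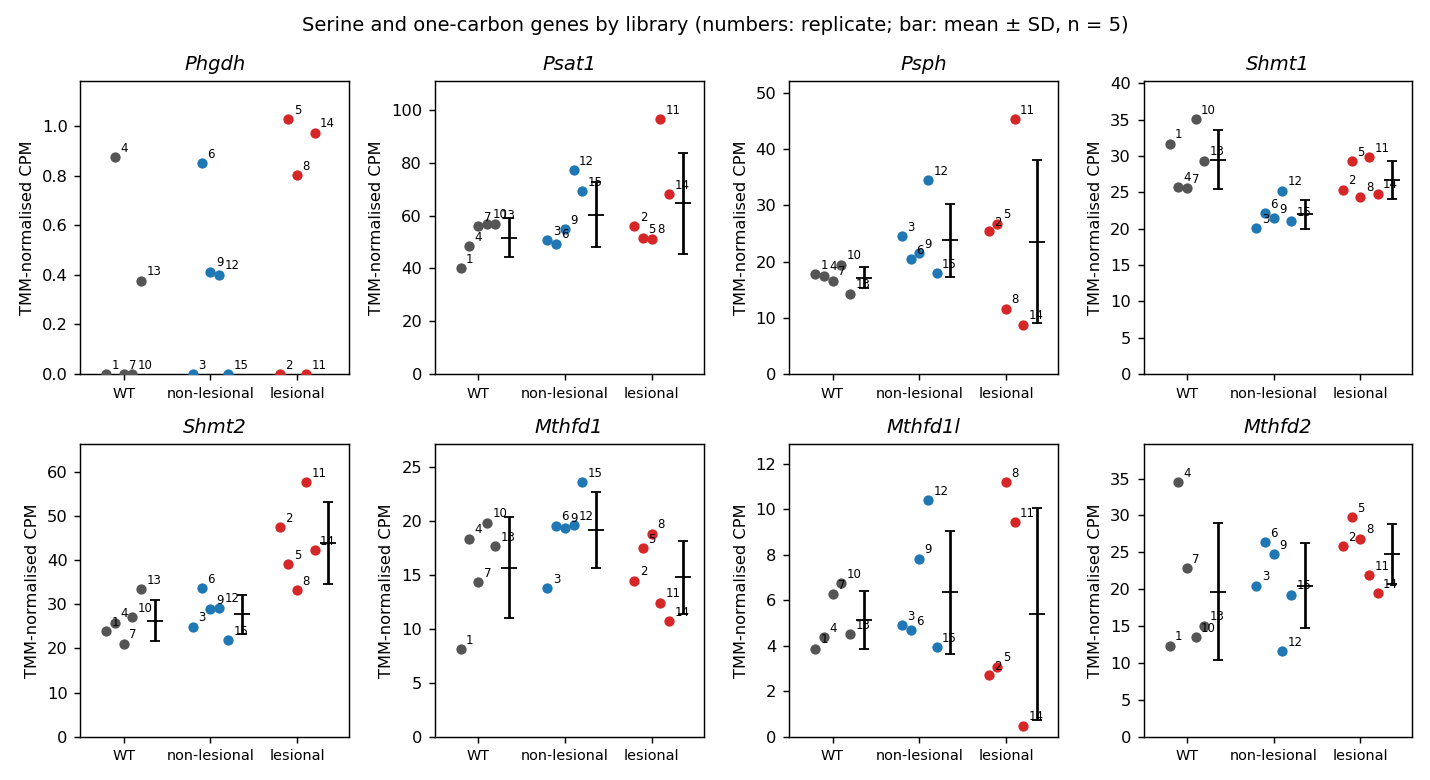
Each panel plots TMM-normalised CPM of 1 gene on the vertical axis, with 1 point per library labelled by its replicate number, for WT (grey), non-lesional (blue) and lesional (red) libraries. Black bars give the mean ± SD of 5 libraries, left out for *Phgdh*, which had 0 to 2 counts. All non-lesional points of *Shmt1* lie below the WT points, and 4 of 5 lesional points of *Shmt2* lie above them.

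*Shmt1* (ENSMUSG00000020534), the cytosolic hydroxymethyltransferase, was lower in non-lesional than in WT libraries. It had 31.7, 25.8, 25.6, 35.05 and 29.3 CPM in WT libraries and 20.04, 22.1, 21.4, 25.2 and 21.0 CPM in non-lesional libraries, which did not overlap. The means were 29.5 ± 4.03 and 21.97 ± 1.98 CPM (SD, n = 5 each), with a log2 fold change of -0.42 (SE 0.15), and between -0.48 and -0.36 when each replicate was left out in turn. Among all genes tested between these groups, 0.269% were likewise lower without overlap. The edge was narrow, since the highest non-lesional library had 25.2 CPM and the lowest WT library 25.6. Lesional libraries, with 25.3, 29.3, 24.4, 29.8 and 24.8 CPM, overlapped both groups with a mean between theirs. Their log2 fold change against WT was -0.14 (SE 0.16), and -0.07 without WT replicate 10.

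At the 3′ end of *Shmt1*, where this method reads, 184 exon bases are also exon of *Smcr8* on the opposite strand. *Smcr8*, which encodes a partner of the C9ORF72 protein, had 12 to 64 counts in a library and was at -0.51 (SE 0.25) in non-lesional and at -0.40 (SE 0.31) in lesional against WT libraries on the log2 scale. A read in these bases was counted for both genes, and reads of both genes cannot be told apart there without strand. The part of this overlap in the *Shmt1* difference was not tested.

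*Shmt2* (ENSMUSG00000025403), the mitochondrial enzyme, was higher in lesional libraries. It had 24.0, 25.8, 21.1, 27.0 and 33.5 CPM in WT libraries and 24.9, 33.6, 28.9, 29.2 and 21.9 CPM in non-lesional libraries, which overlapped almost wholly. Lesional libraries had 47.5, 39.0, 33.2, 57.7 and 42.3 CPM, with 4 of 5 above every WT value and replicate 8 just below the highest one. The mean was 44.0 ± 9.3 CPM in lesional, 27.7 ± 4.5 CPM in non-lesional and 26.3 ± 4.6 CPM in WT libraries (SD, n = 5 each). This gave log2 fold changes of 0.74 (SE 0.19) for lesional against WT and 0.67 (SE 0.18) for lesional against non-lesional libraries, comparisons that share the lesional libraries. The 2 highest values were those of replicates 11 and 2, the libraries with the high hyperplastic epidermis, *S100a8* and *S100a9* values. The part of macrophages and of the changed keratin genes in the *Shmt2* values was not tested. Without both libraries, the log2 fold changes were 0.53 (SE 0.19) and 0.46 (SE 0.19). The 32 bases at its 3′ end that *Shmt2* shares with *Ndufa4l2* on the opposite strand belong to a gene with a log2 fold change of -0.05 in lesional against WT libraries.

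The ratio of *Shmt2* to *Shmt1* counts within a library, formed after the values above were seen, does not depend on the library size. In WT libraries it was 0.756, 1, 0.825, 0.771 and 1.14. In non-lesional libraries it was 1.24, 1.52, 1.35, 1.16 and 1.04, and 4 of these 5 exceeded every WT ratio. In lesional libraries it was 1.88, 1.33, 1.36, 1.93 and 1.71, all above the WT ratios. The means were 0.899 ± 0.167 in WT, 1.26 ± 0.18 in non-lesional and 1.64 ± 0.28 in lesional libraries (SD, n = 5 each). In non-lesional libraries the ratio differed through lower *Shmt1* counts, and in lesional libraries mainly through higher *Shmt2* counts. Lesional replicates 5, 8 and 14, which had low hyperplastic epidermis sums, also lay above the WT ratios. No share of such separations over other pairs of genes is at hand. The *Shmt1* counts include any reads in the bases shared with *Smcr8*, whose part in the ratio was not tested.

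**Figure D2:**
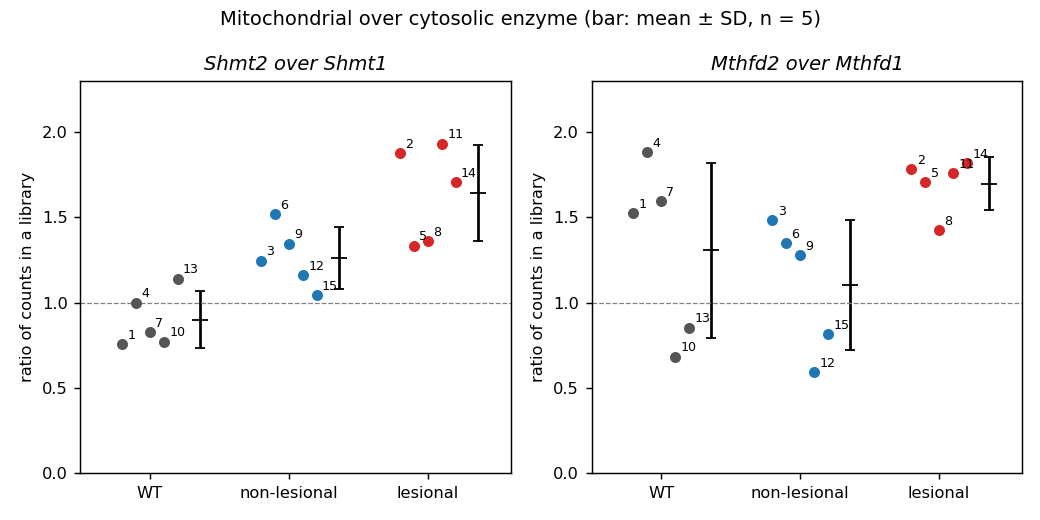
The vertical axes give the ratio of counts of the mitochondrial to the cytosolic enzyme in each library, *Shmt2* to *Shmt1* on the left and *Mthfd2* to *Mthfd1* on the right, with points labelled by replicate, black bars for mean ± SD of 5 libraries and a dashed line at a ratio of 1. The left ratio runs from 0.756 to 1.14 in WT and from 1.33 to 1.93 in lesional libraries, while the right ratio is widely spread in WT and non-lesional libraries and lies between 1.43 and 1.82 in lesional libraries.

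*Mthfd2* (ENSMUSG00000005667), on chromosome 6 from 83305691 to 83325908, encodes the mitochondrial dehydrogenase and cyclohydrolase. It had 12.4, 34.5, 22.9, 13.5 and 15.04 CPM in WT libraries, 20.5, 26.4, 24.7, 11.6 and 19.3 CPM in non-lesional libraries and 25.8, 29.8, 26.8, 21.9 and 19.5 CPM in lesional libraries. The groups overlapped, and the highest of all 15 values was that of WT replicate 4. Against WT the log2 fold change was 0.07 (SE 0.28) for non-lesional and 0.34 (SE 0.27) for lesional libraries, which without WT replicate 4 were 0.37 and 0.64.

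*Mthfd1* (ENSMUSG00000021048), on chromosome 12 from 76255298 to 76319803, encodes the cytosolic enzyme that joins 3 activities in 1 protein. Its values were 8.12, 18.4, 14.4, 19.8 and 17.7 CPM in WT, 13.8, 19.6, 19.4, 19.6 and 23.6 CPM in non-lesional and 14.5, 17.5, 18.8, 12.4 and 10.7 CPM in lesional libraries. The lowest was that of WT replicate 1, the library with the high hair sum, and without it the log2 fold change of non-lesional against WT libraries was 0.13 in place of 0.30 (SE 0.22). Between lesional and non-lesional libraries the log2 fold change was -0.37 (SE 0.21), with 2 lesional libraries below all non-lesional ones. The ratio of *Mthfd2* to *Mthfd1* counts was 1.31 ± 0.51 in WT, 1.10 ± 0.38 in non-lesional and 1.70 ± 0.16 in lesional libraries (SD, n = 5 each), and lesional libraries overlapped with both other groups.

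*Mthfd1l* (ENSMUSG00000040675), on chromosome 10 from 3973118 to 4167081, encodes the mitochondrial synthetase that releases formate and had the lowest level of the 7 genes tested. WT libraries had 3.87, 4.37, 6.28, 6.76 and 4.51 CPM, and non-lesional libraries 4.90, 4.68, 7.83, 10.4 and 3.94 CPM. Lesional libraries had 2.72, 3.08, 11.2, 9.45 and 0.486 CPM, so that 3 lay below and 2 above all WT libraries. These values rest on 1 to 28 counts in a library, which alone give a coefficient of variation of 27.5% at the mean count. Against WT it was at 0.31 (SE 0.33) for non-lesional and 0.10 (SE 0.53) for lesional libraries on the log2 scale. The former was 0.06 without non-lesional replicate 12, and the latter -0.38 without lesional replicate 8 and 0.38 without lesional replicate 14.

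Over the 7 genes tested, the median log2 fold change was 0.22 between non-lesional and WT libraries, with 6 genes higher and 1 lower, and -0.003 over all 13021 genes tested, of which 49.4% were higher. The median of the 7 was 0.12 without non-lesional replicate 12. Between lesional and WT libraries the median was 0.32, with 5 genes higher and 2 lower, and -0.003 over all 12918 genes, of which 49.5% were higher. Without lesional replicates 2 and 11 the latter median of the 7 genes was 0.001, and without replicate 11 alone it was 0.08. Between lesional and non-lesional libraries it was 0.10, with 4 genes higher and 3 lower, and 0.003 over all 12864 genes, of which 50.6% were higher. Without lesional replicate 11 this median of the 7 genes was -0.09. With edgeR's quasi-likelihood test and Benjamini-Hochberg adjustment, 0 genes of the whole table (0%) had an adjusted p under 0.05 in each of the 3 comparisons, and hence 0 of the 7. With the 5 sets of consecutive replicate numbers as a block, a fit added after the data were seen, 8 genes passed between non-lesional and WT libraries, none of the 7 among them, and 0 in the other comparisons. An unadjusted p under 0.05 was found for 411, 621 and 543 genes in the order given (3.16%, 4.81% and 4.22%), and DESeq2's Wald test on the same genes gave 3, 1 and 0 genes passing the adjusted threshold, none of them among the 8. Groups did not overlap, in either direction, for 1 of the 7 genes in the first comparison, namely *Shmt1*, beside 0.384% of all genes higher and 0.269% lower without overlap, and for 0 in the others, where 0.449% of all genes were higher and 0.248% lower without overlap in lesional against WT libraries, and 0.28% and 0.326% in lesional against non-lesional libraries.

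**Figure D3:**
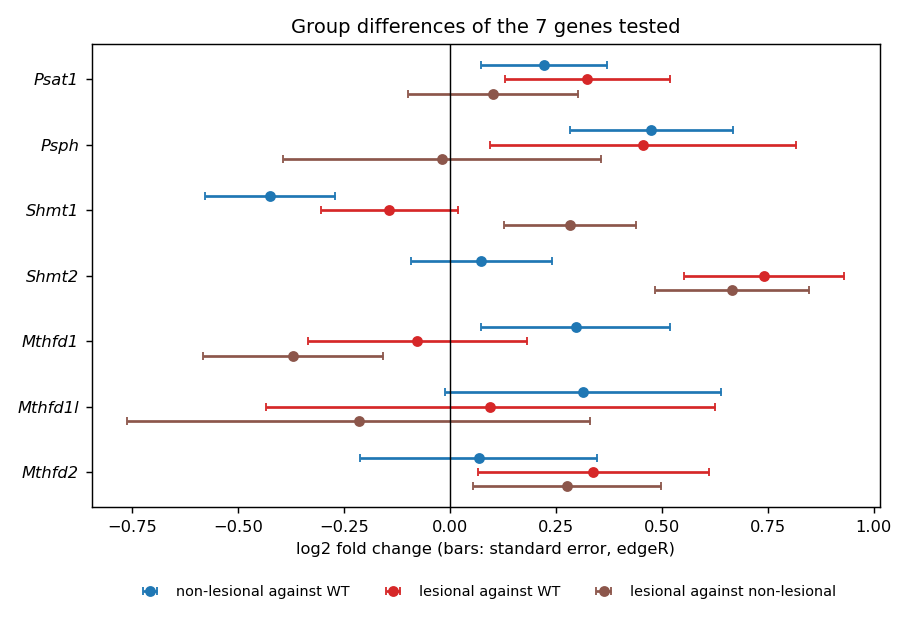
Points give the log2 fold change of each of the 7 genes tested and bars its standard error, for non-lesional against WT (blue), lesional against WT (red) and lesional against non-lesional libraries (brown), which share libraries pairwise. *Shmt2* is at 0.74 and 0.67 in the comparisons of lesional libraries and at 0.07 in non-lesional against WT, and *Shmt1* is at -0.42 in the latter.

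Within the 5 sets of consecutive replicate numbers, the sign of the CPM difference was counted for the 7 genes, with no test. Between non-lesional and WT libraries, *Psph* was higher and *Shmt1* lower in 5 of 5 sets, as were 4.05% and 3.36% of all genes tested. Between lesional and WT libraries, *Shmt2* was higher in 5 of 5 sets and 0 genes of the 7 were lower, beside 3.62% and 3.34% of all genes. Between lesional and non-lesional libraries, *Shmt2*, *Shmt1* and *Mthfd2* were higher in 5 of 5 sets and 0 of the 7 lower, beside 4.22% and 3.91% of all genes. The remaining genes had both signs in each comparison. The ratios of *Mthfd2* to *Mthfd1* and of *Psat1* to *Psph* were lower in non-lesional than in WT libraries in 5 of 5 sets. In 5 of 5 sets the ratio of *Shmt2* to *Shmt1* was higher in lesional than in WT libraries. That of *Mthfd2* to *Mthfd1* was higher in lesional than in non-lesional libraries in 5 of 5 sets. For these ratios no share over all genes is at hand.

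The 7 genes tested differed in which libraries were highest and lowest. Lesional replicate 11 had the highest value of *Psat1*, *Psph* and *Shmt2* and was among the top 3 for 5 of the 7 genes, but ranked low for *Mthfd1*. Non-lesional replicate 12, the library with the high erythrocyte sum, was second for *Psat1*, *Psph* and *Mthfd1l* and lowest for *Mthfd2*. Lesional replicate 14 was lowest for *Psph* and *Mthfd1l*, although its *Psat1* and *Shmt2* levels lay above all WT values. The ratio of *Psat1* to *Psph* counts, enzymes of successive steps, accordingly ran from 1.92 to 7.78 in lesional libraries, from 2.07 to 3.85 in non-lesional and from 2.26 to 3.97 in WT libraries. Averaged over the 7 genes, log2 CPM centred on the mean of each gene was -0.10 ± 0.17 in WT, 0.04 ± 0.13 in non-lesional and 0.06 ± 0.34 in lesional libraries (SD, n = 5 each). The highest and the lowest of the 15 libraries, at 0.50 and -0.46, were lesional replicates 11 and 14. The lowest value includes a *Mthfd1l* level that rests on 1 count in replicate 14, and WT replicate 1 was next at -0.38.

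**Figure D4:**
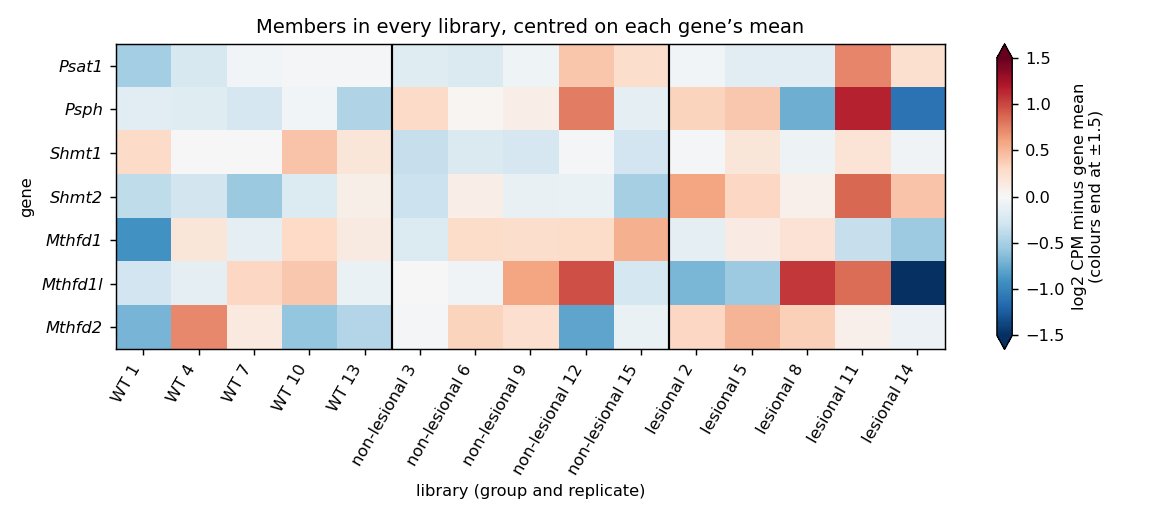
Rows are the 7 genes tested and columns the 15 libraries, grouped as WT, non-lesional and lesional, and colour gives log2 CPM minus the mean of the gene, red for higher and blue for lower, with colours ending at ±1.5. Lesional replicate 11 is red for *Psat1*, *Psph*, *Shmt2* and *Mthfd1l*, and lesional replicate 14 is blue for *Psph* and *Mthfd1l*.

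Among 10751 other genes with a mean of at least 20 counts, the order of the 15 libraries was compared with that of this average. That order includes the *Mthfd1l* level from 1 count in lesional replicate 14. The 5 closest were *Eif4g2*, a translation factor, and *Gar1*, a protein of small nucleolar particles, both at a mean rank difference of 1.07, and *Atg3*, *Nop58* and *Cks1b* at 1.47, where the median gene was at 4.93. The 7 genes themselves, which make up the average, were between 2.13 for *Psph* and 5.07 for *Shmt1*. The closest genes were picked from many, and no test is given.

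The other genes of the pathway were taken from 6 lists with 73 genes, covering other folate enzymes and carriers, glycine cleavage, the methionine cycle and transsulfuration, transport and use of serine, purine synthesis, and the ATF4 pathway. As in the whole table, 0 genes of these lists passed the adjusted threshold of 0.05 by edgeR in any comparison. Between lesional and WT libraries 60 were tested, with a median log2 fold change of 0.07, and 5 of them (8.33%) had an unadjusted p under 0.05, all higher, beside 3.24% of all genes higher and 1.56% lower. Of these 5, 3 belonged to the ATF4 list, in which 16 of 19 tested genes were higher and the median log2 fold change was 0.22. That list summed to 1143, 1018, 1118, 1580 and 1159 CPM in lesional replicates 2, 5, 8, 11 and 14, and to 919 to 1099 CPM in WT libraries. Without lesional replicate 11, *Sesn2*, *Atf3* and *Cebpg* were at -0.18, -0.32 and -0.08 in place of 0.22, 0.38 and 0.02. *Pycr1* was at 0.08 in place of -0.15. Between non-lesional and WT libraries 59 were tested, with a median of 0.08, and 1 (1.69%) had an unadjusted p under 0.05, higher, beside 1.85% of all genes higher and 1.31% lower. Between lesional and non-lesional libraries 3 of 60 were higher and 1 lower at this level (6.67%), beside 2.89% and 1.33% of all genes, and the median was 0.05.

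In the ATF4 list, *Asns*, which encodes asparagine synthetase, had 7.18 to 12.8 CPM in WT and 12.8 to 29.8 CPM in lesional libraries, which did not overlap by a narrow edge, as 0.449% of all genes were higher without overlap. The highest value was that of lesional replicate 11, and the other 4 lesional libraries had 12.8 to 15.6 CPM. Its log2 fold change was 0.82 (SE 0.27), and 0.54 without that library. *Nars*, an asparaginyl-tRNA synthetase gene, had 91.7 to 101 CPM in WT and 110 to 136 CPM in lesional libraries, also without overlap, and a log2 fold change of 0.35 (SE 0.12). Both had an adjusted p of 0.926 from edgeR's test. *Atf4* itself had 199 to 261 CPM in WT and 231 to 439 CPM in lesional libraries, which gave a log2 fold change of 0.43 (SE 0.17), and 0.25 without lesional replicate 11, where it was highest. In non-lesional libraries *Nars* was at 0.17 (SE 0.10), and *Sesn2*, a stress-induced regulator of growth signalling, at -0.90 (SE 0.43) on 7 to 49 counts in WT libraries.

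Of the other folate genes, *Slc19a1*, the reduced folate carrier, had 6.02 ± 2.37 CPM in WT, 8.01 ± 3.47 CPM in non-lesional and 10.2 ± 2.6 CPM in lesional libraries (SD, n = 5 each), with log2 fold changes of 0.42 (SE 0.34) and 0.77 (SE 0.31), the former 0.18 without non-lesional replicate 3. *Ggh*, which trims the glutamate tail of folates, was at 0.41 (SE 0.37) in lesional libraries but at -0.004 without replicate 11, and *Slc25a32*, the mitochondrial folate carrier, at -0.19, or -0.098 without WT replicate 1. *Tyms*, thymidylate synthase, was at 0.47 (SE 0.29) in non-lesional libraries and at 0.29 without WT replicate 1. Glycine cleavage splits glycine in mitochondria to give a further one-carbon unit, and its tested genes had log2 fold changes in lesional libraries of 0.50 for *Amt*, -0.23 for *Gcsh* and 0.03 for *Dld*, the first on 8 to 17 counts in WT libraries, and *Gcsh* was at -0.06 without lesional replicate 11. In non-lesional libraries *Amt* was at 0.39, or 0.16 without replicate 6, and *Dld* at 0.22, or 0.15 without replicate 3. In lesional libraries *Dld* was between -0.04 and 0.11 when each library was left out.

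Among genes that use the products, *Pfas* and *Prps2* of purine synthesis were at 0.45 and 0.46 in lesional libraries and *Paics* at -0.37, with 138 to 409 CPM in lesional and 300.4 to 445 CPM in WT libraries. *Paics* was at -0.19 without lesional replicate 14, and *Prps2* at 0.73 without WT replicate 4. *Prps1* was the gene of the 6 lists with an unadjusted p under 0.05 in non-lesional libraries, at 40.1 ± 6.1 CPM against 31.2 ± 4.9 CPM in WT (SD, n = 5 each) and a log2 fold change of 0.37 (SE 0.15), and *Prps2* was at 0.40 there, or 0.66 without WT replicate 4. *Sptlc1*, a subunit of the enzyme that joins serine to palmitoyl-CoA for ceramide synthesis, was at 0.38 (SE 0.17) in lesional libraries and at 0.26 without replicate 11. *Ptdss2*, which makes phosphatidylserine, was at -0.42 and the mitochondrial serine carrier *Sfxn1* at 0.28 in the same comparison, the latter between 0.17 and 0.43 when each library was left out. In non-lesional libraries the glycine transporter *Slc6a9* was at -0.34 and *Ptdss1* at 0.21. Of the methionine list, *Mat2b* was at 0.12, *Cbs* at -0.22 and *Mtrr* at 0.15 in lesional libraries, and *Mtr* at -0.17 and *Mat2b* at 0.13 in non-lesional libraries. Single libraries moved these values, and *Cbs* was at 0.006 without lesional replicate 11, *Mtrr* at 0.003 without lesional replicate 5, *Mtr* at -0.09 without non-lesional replicate 12, and *Mat2b* at 0.04 and 0.05 without WT replicate 7.

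**Figure D5:**
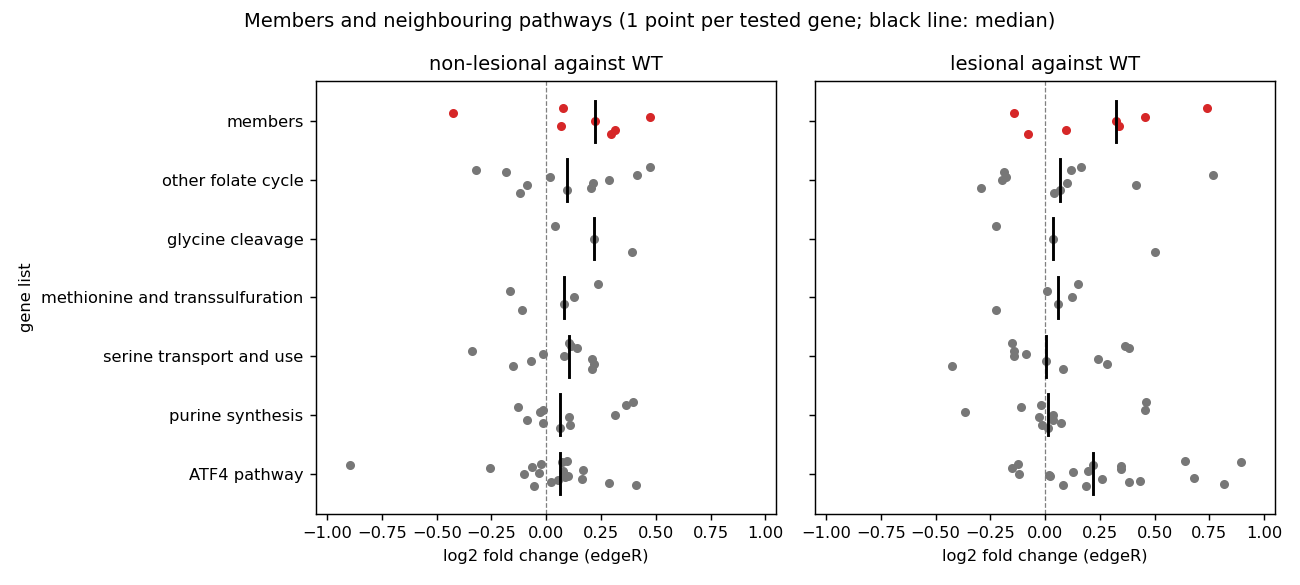
Each point is the log2 fold change of 1 tested gene, with non-lesional against WT on the left and lesional against WT on the right, in rows for the genes described here (red) and for 6 lists of neighbouring pathways (grey), and black lines give the median of a row. Medians of the red row are 0.22 and 0.32, and those of the grey rows lie between 0.06 and 0.22 on the left and between 0.005 and 0.22 on the right.

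A list of 14 proliferation genes had overlapping summed CPM of 194 to 561 in WT, 311 to 569 in non-lesional and 348 to 740 in lesional libraries, and the median log2 fold change against WT over those tested came to 0.22 for non-lesional and 0.44 for lesional libraries, with 0 of 14 and 2 of 13 genes at an unadjusted p under 0.05, beside 3.16% and 4.81% of all genes, and 0 passing the adjusted threshold by edgeR. The lowest sum was that of WT replicate 1, which was also lowest for *Psat1* and *Mthfd1*, and the highest that of lesional replicate 11, which was highest for *Psat1*, *Psph* and *Shmt2* but ranked 13 of 15 for *Mthfd1*. WT replicate 4, with a sum of 561, ranked 14 for *Psat1*. The part of proliferating cells in the values of the 8 genes was not tested.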

How the data were processed

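The authors extracted RNA with Trizol and RNeasy columns, prepared Lexogen QuantSeq FWD libraries, clipped adaptors with cutadapt 2.10 (per the submitters' processing notes), mapped with subread-align to GRCm38, used SAMtools to remove matches of low mapping quality and counted matches over exons with featureCounts 2.0.1. The deposited counts are not normalized, a match overlapping several genes counts for each, and no strand option or annotation release is given in the sources used here. The stated rules on RNA integrity contradict each other, so RNA quality is not known here. The deposited CPM, each count over its library total, were not used.

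From the counts, 92 spike-in rows with 0 counts were left out. Each pair of groups was fitted with edgeR 4.0.16 in R 4.3.3 (TMM, filterByExpr, robust quasi-likelihood F-test, Benjamini-Hochberg over all genes tested, threshold 0.05), with DESeq2 1.42.0 among the alternatives. Standard errors (SE) were obtained by dividing the size of the log2 fold change by the square root of F. Log2 CPM used a prior count of 2. The study's legends give 5 mice a group, and it is not stated whether lesional and non-lesional libraries share mice. No source pairs libraries, but replicate numbers run in 5 consecutive sets of 3. Deviations from the group means, over all genes tested, correlated within sets with r from 0.123 to 0.281 between non-lesional and WT libraries, from 0.096 to 0.313 between lesional and non-lesional and from -0.089 to 0.249 between lesional and WT libraries, and a fit with the sets as a replicate block was added. Positions come from GENCODE M21 on GRCm38, where 55141 of 55487 genes had a row, and promoter windows from RefSeq. Similar transcripts were searched with blastn at 90% identity over at least 50 bases. Fits were also run on simulated counts with the same spread in every gene and group, unlike the lesional libraries, and nothing here rests on them.

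The 8 genes, the lists and the alternatives were chosen with earlier results of these data known. Named beside the 8 are, of each of 6 pathway lists, at most 3 genes with the smallest p in lesional and 2 in non-lesional against WT libraries, and the 5 genes closest in library order. Genes sharing exons with the 8, the removal of lesional replicates 2 and 11, the block and the removal of single libraries for pathway genes were added after values were seen.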

Additional observations from a re-analysis of the deposited data

Results flagged for a closer look

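In 30 groups of 5 values, namely the CPM of the 7 genes tested and the ratios of *Shmt2* to *Shmt1*, *Mthfd2* to *Mthfd1* and *Psat1* to *Psph* in each group, 2 values lay far from the rest, where chance alone gives about 1 in 20 groups. The ratio of *Psat1* to *Psph* counts was 3.85 in non-lesional replicate 15, against 2.07 to 2.56 in the other 4 non-lesional libraries, and its gap took 0.728 of the range, where the critical value is 0.71. That library had 158 *Psat1* and 41 *Psph* counts. The set of consecutive numbers it belongs to had the highest ratio in each group, with 3.97 in WT replicate 13 and 7.78 in lesional replicate 14, and the chance rate above takes libraries as independent. The ratio of *Mthfd2* to *Mthfd1* counts was 1.43 in lesional replicate 8, against 1.71 to 1.82 in the other 4 lesional libraries, and its gap took 0.714 of the range. That library had 47 *Mthfd1* counts, the most of the lesional libraries, and 67 *Mthfd2* counts.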

How the results depend on the processing

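The groups share no replicate number. With the 5 sets of consecutive numbers as a replicate block, added after the data were seen, 8 genes passed the adjusted threshold of 0.05 between non-lesional and WT libraries (7 higher) and 0 in the other comparisons, and the medians of the 7 genes were 0.21, 0.29 for lesional against WT and 0.09 for lesional against non-lesional libraries. Own-set correlations were over 0.1 in 11 of 15 pairs and highest in 11 of 15, from -0.09 to 0.31, and 0.1 was passed in all 5 sets between non-lesional and WT libraries alone. Between non-lesional and WT libraries, genes passing that threshold numbered 0 with edgeR and no block, 3 with DESeq2's Wald test, 18 with no filter on low counts and between 0 and 5 when each replicate was left out, with 5 without non-lesional replicate 6. Between lesional and WT libraries it was 0, and 1 with DESeq2. Between lesional and non-lesional libraries it was 0 in every alternative run. None of the 8 genes was among those called in any of these fits. The median log2 fold change of the 7 genes between lesional and WT libraries was 0.32, 0.0014 without lesional replicates 2 and 11, and between 0.08 and 0.38 when each replicate was left out, and the cause was not tested. The remaining 52 of 53 medians under alternatives moved by less than 1 SD of the library averages. The median between lesional and non-lesional libraries kept its sign in 16 of 18 alternatives and was -0.09 without lesional replicate 11. For single genes, 368 of 368 fold changes moved by less than 1 SD of that gene's own log2 CPM, which was up to 0.98. Of these fold changes, 22 had the opposite sign to the value given, among them, between lesional and non-lesional libraries, *Psat1* at -0.09 without lesional replicate 11 and *Psph* at 0.19 without lesional replicate 14. Neither *Shmt2* in the comparisons of lesional libraries nor *Shmt1* in any comparison changed sign. At 1 to 28 counts for *Mthfd1l* and 0 to 2 for *Phgdh*, depth limits what can be said of these genes.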
